A study of Mus musculus with 36 samples.

Results

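MicroRNAs (miRNAs) of Pkd2-line WT mouse kidneys were compared between postnatal day 7 (P7) and postnatal day 3 (P3), in 3 libraries at each age, 6 of the 36 libraries of the series. The WT kidneys came from Pkd2f/f mice on the C57BL/6 background, which carry floxed Pkd2 alleles and no HoxB7-Cre, so both groups compared share the floxed genotype and differ in age. Total RNA of the whole kidney was extracted with Trizol. The study also sequenced kidneys at P1, KO kidneys in which HoxB7-Cre deletes the floxed gene in the collecting duct, and a second line with floxed Pkd1. Of 1915 mature miRNAs in the table, 746 had at least 10 counts in at least 3 of the 18 libraries of the Pkd2 line and were tested. The labels name neither sex, litter nor batch, and do not say whether a library is 1 animal or a pool, so the p-values measure the spread between these libraries, which may be technical. In a whole organ, fewer cells of a type and less RNA per cell cannot be told apart.

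A miRNA is a short RNA cut from a hairpin precursor, whose 5p or 3p arm is loaded into a silencing complex. Bases 2 to 8, the seed, pair with messenger RNAs and set most of the targets, so miRNAs with the same seed are treated as a family. In the mouse, nephrons are still being formed at birth and stop forming in the first postnatal days, while tubules already present lengthen and mature. Several growth-related miRNAs lie in imprinted genes, which are expressed from the allele of 1 parent and are strongly expressed in the fetus: Igf2 and H19 on chromosome 7, Mest on chromosome 6, and the Dlk1-Dio3 interval on chromosome 12, whose miRNA clusters are expressed from the maternal allele.

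The mature sequences of the miRNAs on which the results turn are shown 5′ to 3′ with the seed in capitals, from RefSeq (GRCm38.p6). The first set rose from P3 to P7, and miR-100-5p and miR-99b-5p have the same seed.
miR-100-5p: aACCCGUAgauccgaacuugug
miR-99b-5p: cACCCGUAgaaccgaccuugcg
miR-181a-5p: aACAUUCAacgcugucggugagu
miR-204-5p: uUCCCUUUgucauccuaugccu
miR-194-5p: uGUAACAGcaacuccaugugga
miR-195a-5p: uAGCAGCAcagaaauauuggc
miR-378d: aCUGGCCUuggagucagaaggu

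The next set fell. The first 4 come from hosts or intervals known as imprinted (miR-483 in Igf2, miR-335 in Mest, miR-300 between Dlk1 and Dio3), and the others from elsewhere.
miR-483-3p: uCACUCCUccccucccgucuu
miR-483-5p: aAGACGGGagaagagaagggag
miR-335-3p: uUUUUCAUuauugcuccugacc
miR-300-3p: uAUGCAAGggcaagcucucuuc
miR-130b-3p: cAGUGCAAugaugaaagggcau
miR-5121: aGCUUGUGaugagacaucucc

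The 6 libraries held 21859844 to 25829028 reads. Values are normalised CPM, read counts divided by a library size corrected for composition, where 3 reads correspond to 0.0959 to 0.248 CPM, and intervals and floors cover counting error only. One library of each age stood apart in composition: the pair miR-10a-5p and miR-10b-5p took 71.9% of reads in P3 replicate 1, against at most 38.5% in the other P3 libraries, and 66.4% in P7 replicate 1, against 47.9% and 42.8%. The mean share was 49.2% ± 19.7 at P3 and 52.4% ± 12.4 at P7 (SD, n = 3 each), a difference of 3.20 percentage points (exact two-sided permutation test, p = 0.7, smallest possible 0.1). Correlations were taken on log2 of the raw counts plus 1, over all 1915 mature miRNAs, of which 325 had no read in any library. P3 replicate 1 correlated with the other P3 libraries at Pearson r = 0.977 and 0.979, against r = 0.991 between these. Kidney markers were present in every library: the summed level of the nephron tubule list ran from 7354 to 31017 CPM and that of the epithelial miR-200 family from 6368 to 8344 CPM, while markers of liver (miR-122) summed to at most 31.8 CPM and those of muscle to at most 37.6 CPM.

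By edgeR's quasi-likelihood test, 31 of the 746 miRNAs passed an adjusted p of 0.05 (4.16%), of which 11 rose (1.47%) and 20 fell (2.68%) at P7. In 19 of the 31 the change was at least 2-fold. The 3 P7 libraries lay entirely above or below the 3 P3 libraries for all 31, as they did for 84 of all 746 miRNAs in the upward direction (11.3%) and 129 in the downward direction (17.3%). At an unadjusted p under 0.05, 64 miRNAs were higher (8.58%) and 119 lower (16%). The median log2 fold change of all 746 was −0.10. The split of calls depended on the scaling: it was 11 rises and 20 falls with TMM factors, 19 and 19 with RLE factors, 3 and 25 with upper-quartile factors, and 0 and 14 with library totals alone, where the median of all miRNAs was −0.50.

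**Figure D1:**
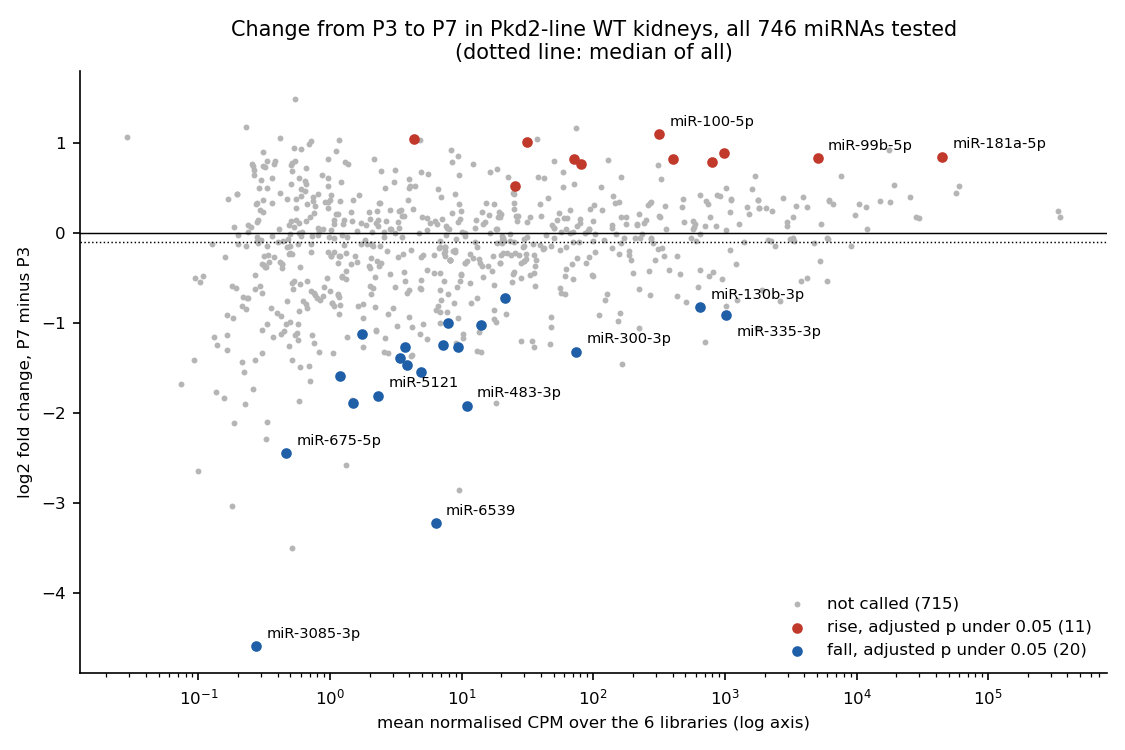
Log2 fold change from P3 to P7 (vertical axis) against the mean normalised CPM over the 6 libraries (horizontal log axis), 1 point for each of the 746 miRNAs. The 11 called rises (red) lie between 0.52 and 1.10, the 20 called falls (blue) reach −3.23 for miR-6539 and −4.59 for the scarce miR-3085-3p, and the dotted line is the median of all, −0.10.

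Many of the calls were lost when 1 library was left out, which also makes its group smaller. Leaving out 1 library left 25 calls without P3 replicate 1, 15 without P3 replicate 2, 23 without P3 replicate 3, 16 without P7 replicate 1, 6 without P7 replicate 2 and 10 without P7 replicate 3. The calls of miR-6539, miR-483-3p, miR-483-5p, miR-335-3p and miR-5121 held whichever library was left out, though that of miR-5121 was lost when all 36 libraries were fitted together (adjusted p = 0.347). All 31 kept their direction under every alternative in which they were tested, including library totals. The alternatives refit the same libraries, and the groups of all 31 did not overlap, so a kept direction is no separate support. Where an omission ended a call, the highest adjusted p over the 6 omissions is given with it below.

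Of the miRNAs of the nephron tubule, miR-204-5p and miR-194-5p rose. The list of miR-192, miR-194, miR-204, miR-215 and miR-802, miRNAs abundant in kidney tubules, had 9 members tested, of which 2 rose, against 1.47% of all miRNAs, and none fell. Its median log2 fold change was 0.70 against −0.10 for all miRNAs, with 8 positive values and 1 negative, that of the scarce miR-215-5p (−1.33 ± 1.07, edgeR adjusted p = 0.499). The sum of the list was 7354, 15423 and 18146 CPM in the P3 libraries and 18362, 27570 and 31017 CPM in the P7 libraries, so that the lowest P7 library lay just above the highest P3 library. The 2 calls were lost without P3 replicate 1, P3 replicate 2, P7 replicate 2 or P7 replicate 3, and the list had 3 calls without P3 replicate 3 and 1 without P7 replicate 1, while its median stayed between 0.68 and 0.96.

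miR-204-5p, encoded in an intron of Trpm3 (hairpin chr19:22750605-22750672, plus strand, GRCm38), was at 525, 730.2 and 809 CPM at P3 and at 1065, 1344 and 1422 CPM at P7. Every P7 library exceeded every P3 library, and the log2 fold change was 0.89 ± 0.21 (SE, n = 3 against 3; edgeR adjusted p = 0.0286, up to 0.113 with 1 library left out). miR-194-5p, which is cut from 2 hairpins, 1 of them beside the tubule miRNA miR-192 on chromosome 19, was at 477, 564 and 713 CPM at P3 and 867, 1112 and 1062 CPM at P7. Its log2 fold change was 0.79 ± 0.21 (edgeR adjusted p = 0.0444, 0.0720 with the replicate block and up to 0.165 with 1 library left out). miR-192-5p itself was at 6200, 13974 and 16440 CPM at P3 and 16205, 24845 and 28242 CPM at P7. The lowest P7 library fell between the upper P3 libraries, and the log2 difference of 0.92 ± 0.34 did not pass (edgeR adjusted p = 0.125). In both ages the lowest miR-192-5p value was that of the library with the highest miR-10 share. With that share as a covariate, 6 of the 9 members of the tubule list passed by edgeR, and the list median was 0.81. In the same fit 121 of all 746 miRNAs passed. The cause was not tested.

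The largest log2 fold change among the rises was that of miR-100-5p (hairpin chr9:41531425-41531504, plus strand, GRCm38). It was at 234, 176 and 191 CPM at P3 and 461, 422 and 407 CPM at P7, with a log2 fold change of 1.10 ± 0.23 (edgeR adjusted p = 0.0122, up to 0.0639 without P3 replicate 2). miR-99b-5p, of the same seed family, which is known for restraining mTOR signalling, rose by 0.83 ± 0.22 on the log2 scale from 4351, 3186 and 3372 CPM to 7025, 6158 and 6235 CPM. Its edgeR adjusted p was 0.0444, 0.0712 with the replicate block and up to 0.137 without P3 replicate 2. The third member of the seed family, miR-99a-5p, was at 317 ± 107 CPM at P3 and 391 ± 4.35 CPM at P7 and did not pass (log2 difference 0.30 ± 0.21, edgeR adjusted p = 0.396). Of the 11 tested members of the miR-99/100 and miR-125 families 2 rose, against 1.47% of all miRNAs, and none fell.

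miR-181a-5p, a miRNA known from lymphocyte and vascular biology and cut from hairpins at chr1:137966455-137966541 and chr2:38852735-38852810 (both plus strand, GRCm38), was at 29028, 31513 and 34780 CPM at P3 and at 56381, 57503 and 57659 CPM at P7. The P7 libraries lay close together and far above those at P3, and the log2 fold change was 0.85 ± 0.17 (edgeR adjusted p = 0.0122, 0.0573 without P7 replicate 2). All 4 miRNAs with the seed of miR-181a-5p had positive log2 differences, except that miR-181b-5p and miR-181d-5p turned to −0.21 and −0.18 with library totals alone, and miR-181a-5p alone of them passed. Next to it, miR-181c-5p was at 5928 ± 922 CPM at P3 and 9226 ± 1041 CPM at P7 without overlap (log2 difference 0.64 ± 0.18, edgeR adjusted p = 0.0598).

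miR-195a-5p (hairpin chr11:70235042-70235135, plus strand, GRCm38), of the miR-15/16 seed family that represses cell cycle genes, was at 320.4, 227 and 321 CPM at P3 and 519, 545 and 478 CPM at P7. It rose by 0.83 ± 0.20 on the log2 scale (edgeR adjusted p = 0.0294, up to 0.123 without P7 replicate 2). miR-497a-5p, whose hairpin lies in the same stretch of chromosome 11 and which has the same seed, was at 259 ± 4.84 CPM at P3 and 393 ± 39.4 CPM at P7 without overlap (log2 difference 0.60 ± 0.18, edgeR adjusted p = 0.0691). The other 4 tested miRNAs with this seed did not pass: miR-16-5p and miR-15a-5p had log2 differences of 0.04 ± 0.22 and 0.12 ± 0.15, and miR-15b-5p and miR-322-5p of −0.18 ± 0.27 and −0.07 ± 0.49. Of the 11 tested members of the miR-15/16 list 1 rose, against 1.47% of all miRNAs.

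miR-378d is named with the miR-378 family, which is tied to mitochondrial metabolism, but its seed differs from that of miR-378c. It was at 42.1, 58.0 and 54.8 CPM at P3 and 79.7, 91.4 and 103 CPM at P7. The rise was 0.82 ± 0.18 on the log2 scale (edgeR adjusted p = 0.0151, up to 0.0573 without P7 replicate 2). All 5 tested miRNAs named miR-378 had positive log2 differences with a median of 0.41, but the median turned to −0.03 with library totals alone. 

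The remaining rises were miR-551b-3p, miR-1839-3p, miR-874-3p and miR-488-3p, with log2 fold changes between 0.52 and 1.05. miR-551b-3p, from an intron of Egfem1, was at 2.57, 2.59 and 3.29 CPM at P3 and 4.80, 6.60 and 6.13 CPM at P7. miR-1839-3p was at 20.8, 14.4 and 27.4 CPM at P3 and 39.3, 41.7 and 45.4 CPM at P7. miR-488-3p, from an intron of the neuronal gene Astn1, was at 19.2, 22.2 and 21.6 CPM at P3 and 30.4, 30.6 and 29.7 CPM at P7, a small step with closely grouped replicates. The replicate block ended these 3 calls, with adjusted p = 0.0799 for miR-551b-3p, 0.0712 for miR-1839-3p and 0.0629 for miR-488-3p by edgeR. With 1 library left out their adjusted p reached 0.165, 0.137 and 0.115. miR-874-3p went from 59.3 ± 8.05 to 101 ± 8.32 CPM (log2 fold change 0.77 ± 0.19, edgeR adjusted p = 0.0294, up to 0.116 with 1 library left out).

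**Figure D2:**
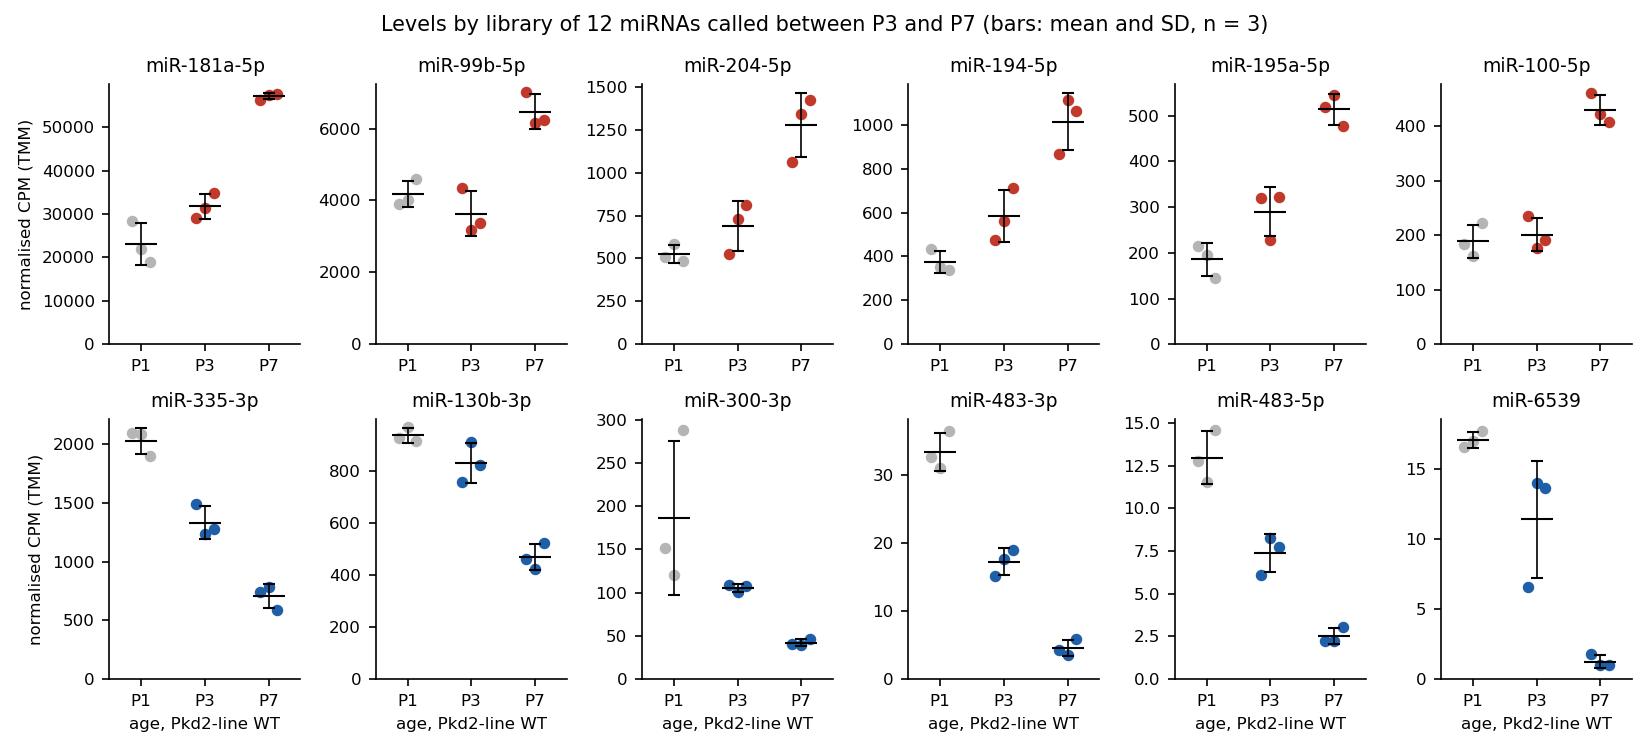
Normalised CPM (vertical axes, starting at 0) of 12 called miRNAs in each Pkd2-line WT library at P1 (grey), P3 and P7 (red for rises, blue for falls), with bars for mean and SD (n = 3). In each panel the 3 P7 points lie wholly above or below the 3 P3 points, and P3 replicate 1, drawn leftmost, is the low P3 point of miR-6539 at 6.62 CPM.

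Of the miRNAs of 3 imprinted hosts, both arms of miR-483 and 1 arm each of miR-335 and miR-675 fell. miR-675 in H19, miR-483 in Igf2 and miR-335 in Mest gave 6 tested arms, all with negative log2 differences, against 431 of all 746 miRNAs, and a median of −1.30. By the test 4 of the 6 fell, against 2.68% of all miRNAs, and miR-335-5p and miR-675-3p did not pass (edgeR adjusted p = 0.254 and 0.102). The Igf2 gene encodes the fetal growth factor IGF2, and H19 is the noncoding RNA of the neighbouring imprinted gene.

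miR-483-3p, from an intron of Igf2 (hairpin chr7:142654924-142654996, minus strand, GRCm38), was at 15.2, 17.6 and 19.02 CPM at P3 and at 4.25, 3.56 and 5.86 CPM at P7. The other arm of the same hairpin, miR-483-5p, was at 6.12, 8.25 and 7.77 CPM at P3 and 2.24, 2.23 and 3.06 CPM at P7. Neither arm had overlapping groups, and they fell by 1.92 ± 0.33 and 1.55 ± 0.27 on the log2 scale (edgeR adjusted p = 0.0043 for each). At P1 miR-483-3p was at 33.4 ± 2.80 CPM, above its P3 level.

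miR-335-3p, from an intron of Mest (hairpin chr6:30741299-30741396, plus strand, GRCm38), was at 1488, 1230 and 1275 CPM at P3 and at 741, 786 and 589.9 CPM at P7. It fell by 0.92 ± 0.15 on the log2 scale (edgeR adjusted p = 0.0033), from a P1 level of 2023 ± 109 CPM. Its other arm, miR-335-5p, was at 4835, 1181 and 1080 CPM at P3 and 1744, 892 and 784 CPM at P7. Replicate 1 stood high at both ages, and the groups overlapped through P7 replicate 1. The log2 difference of −1.05 ± 0.56 did not pass (edgeR adjusted p = 0.254). miR-675-5p, from an exon of H19, was scarce, with 17, 9 and 20 reads at P3 and 3, 3 and 1 reads at P7, a ratio of 0.195 (95% interval from the counts alone 0.0743 to 0.435). Its edgeR adjusted p was 0.0444, 0.0702 with the replicate block and up to 0.187 with 1 library left out, and it passed in 1 of the 6 omissions.

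The miRNAs of the Dlk1-Dio3 interval had negative log2 differences almost throughout, of which few passed the test. Of 86 tested members of the list, 84 had a negative log2 difference and the median was −1.01, against −0.10 for all miRNAs. In 53 of the 86 every P7 library lay below every P3 library, against 17.3% of all miRNAs, and 47 had an unadjusted p under 0.05 downward, against 16% of all. After adjustment over all miRNAs 6 of the 86 fell, against 2.68% of all, and none rose. They were miR-665-3p, miR-679-5p, miR-300-3p, miR-379-3p, miR-540-3p and miR-299a-3p. Members of the interval come from shared transcripts, so they are not independent of each other.

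The summed level of the list was 7013, 8748 and 8653 CPM at P3 and 4015, 4291 and 5361 CPM at P7. The 3 P7 libraries lay below all P3 libraries. At P1 the sums were 10386, 8567 and 20537 CPM, with replicate 3 standing far above the others. The median of the list stayed between −1.06 and −0.90 whichever library was left out and between −1.39 and −0.91 under the other scalings and fits. The number of its calls did not hold: it was 3 without P3 replicate 1, at most 3 and as few as 0 over the 6 omissions, and 1 with library totals. With upper-quartile factors it was 11, with DESeq2 16 and with a covariate for the miR-10 share 21. Of all 746 miRNAs, DESeq2 called 76 and the fit with the covariate 121.

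miR-300-3p (hairpin chr12:109724313-109724391, plus strand, GRCm38) was at 108, 100.5 and 107 CPM at P3 and at 40.2, 39.8 and 46.5 CPM at P7. The groups were far apart, and it fell by 1.32 ± 0.33 on the log2 scale (edgeR adjusted p = 0.0352, 0.0600 to 0.145 with 1 library left out). miR-379-3p, which gives its name to the larger cluster, fell by 1.27 ± 0.34 on the log2 scale, from 14.1, 13.1 and 12.8 to 4.80, 5.27 and 6.45 CPM (edgeR adjusted p = 0.0444, 0.0743 to 0.150 with 1 library left out). The other called members ranged from the scarce miR-665-3p, at 2.40, 2.41 and 2.24 CPM at P3 and 0.464, 0.808 and 0.586 CPM at P7, to miR-299a-3p, at 21.4, 17.2 and 17.5 CPM and then 9.67, 8.60 and 9.38 CPM. miR-540-3p went from 10.1 ± 0.973 to 4.25 ± 0.526 CPM and miR-679-5p from 5.65 ± 1.49 to 2.01 ± 0.452 CPM. With 1 library left out the edgeR adjusted p reached 0.155 for miR-665-3p, 0.113 for miR-299a-3p, 0.0852 for miR-540-3p and 0.0871 for miR-679-5p. The members with most reads did not pass. miR-127-3p was at 2364, 3888 and 3682 CPM at P3 and 1536, 1928 and 2435 CPM at P7, where the groups overlapped (log2 difference −0.75 ± 0.42, edgeR adjusted p = 0.279). miR-541-5p was lower without overlap, at 1684, 590.3 and 696 CPM at P3 and 571, 348 and 363 CPM at P7 (log2 difference −1.21 ± 0.46, edgeR adjusted p = 0.127).

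By position, 58 hairpins between Dlk1 and Dio3 (chr12:109452823-110281097, GRCm38) gave 85 tested miRNAs, of which 80 had negative log2 differences. The 3 miRNAs from the minus strand, miR-3544-5p and both arms of miR-1247, had positive values, as did miR-299a-5p (0.07 ± 0.38) and miR-409-5p (0.82 ± 0.57). The hairpin of miR-1247 lies 737 kb from the start of Meg3, beside Dio3. miR-1247-5p was at 3.48, 2.10 and 3.90 CPM at P3 and 4.33, 7.22 and 7.75 CPM at P7 (log2 difference 1.04 ± 0.37, edgeR adjusted p = 0.112).

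**Figure D3:**
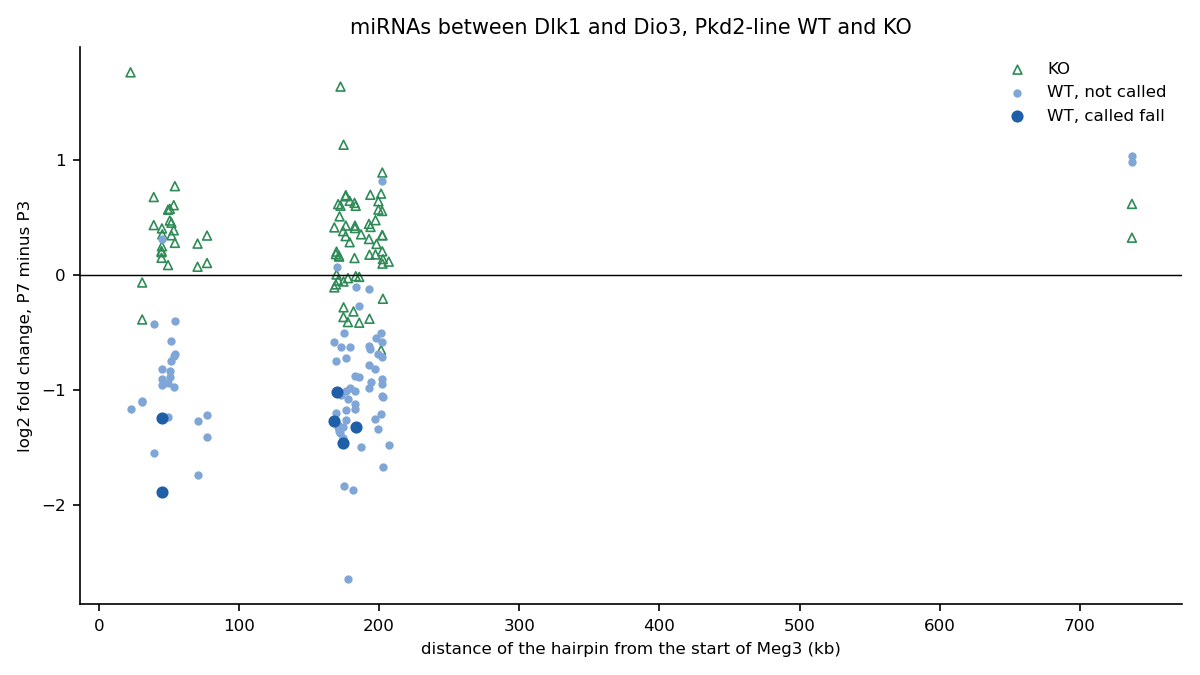
Log2 fold change from P3 to P7 (vertical axis) of the 85 miRNAs tested between Dlk1 and Dio3, by the distance of the hairpin from the start of Meg3 in kb (horizontal axis), in Pkd2-line WT (filled points, the 6 called falls larger) and KO (open triangles). In WT 80 of 85 points lie below 0, in KO 17 of 85, and the pair at 737 kb is miR-1247.

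Other falls came from outside these loci. miR-6539 had the largest fall among the calls with a mean of at least 10 counts, from 6.62, 14.1 and 13.7 CPM at P3 to 1.78, 0.998 and 0.992 CPM at P7 (log2 fold change −3.23 ± 0.35, edgeR adjusted p = 6.03e-05). Its P1 level was 17.1 ± 0.575 CPM. miR-5121, whose annotated hairpin overlaps an exon of the ribosomal protein gene Rpl13a on the same strand (chr7:45126918-45126991, GRCm38), fell by 1.81 ± 0.28 on the log2 scale, from 3.89, 2.27 and 4.64 to 1.08, 0.9504 and 1.04 CPM (edgeR adjusted p = 0.00244). Its P1 level of 1.08 ± 0.166 CPM was near that of P7, and it was 1 of only 2 miRNAs called between P3 and P1 (0.268%), where it was higher at P3. Reads of the exon and of the annotated miRNA have the same sequence there and cannot be told apart.

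miR-130b-3p and miR-301b-5p come from neighbouring hairpins (chr16:17124061-17124142 and chr16:17124400-17124496, minus strand, GRCm38) in an intron of 2610318N02Rik, and miR-130b-3p shares its seed with miR-130a-3p and miR-301a-3p. miR-130b-3p was at 759, 909 and 823 CPM at P3 and at 460.3, 423 and 523 CPM at P7, a fall of 0.82 ± 0.16 on the log2 scale (edgeR adjusted p = 0.0101, 0.0852 without P7 replicate 2). miR-301b-5p was at 0.910, 2.27 and 2.17 CPM at P3 and 0.696, 0.475 and 0.676 CPM at P7 (log2 fold change −1.59 ± 0.38, edgeR adjusted p = 0.0286, up to 0.145 without P7 replicate 2). For comparison, miR-130a-3p was at 4506 ± 741 CPM at P3 and 3115 ± 115 CPM at P7 and did not pass (log2 difference −0.53 ± 0.17, edgeR adjusted p = 0.0948).

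The miR-17/92 cluster and its paralogs, known for promoting proliferation in the developing kidney and in cysts, had 25 members tested, of which 21 had negative log2 differences. Their median was −0.48, which shrank to −0.14 without P3 replicate 1. By the test 1 of the 25 passed, against 4.16% of all miRNAs. It was miR-25-5p from Mcm7, which encodes a DNA replication licensing factor. It fell by 1.00 ± 0.24 on the log2 scale from 13.2, 9.72 and 8.41 to 6.88, 4.75 and 4.10 CPM (edgeR adjusted p = 0.0294, up to 0.152 without P7 replicate 3). The call was kept in only 2 of the 6 omissions. The far more abundant arm of the same hairpin, miR-25-3p, was at 3459 CPM at P3 and 3245 CPM at P7 (group means). It did not pass (log2 difference −0.09 ± 0.27, edgeR adjusted p = 0.888). miR-92a-3p was at 5649, 8611 and 7071 CPM at P3 and 4574, 4377 and 5768 CPM at P7, where only 1 P7 library reached the lowest P3 value (log2 difference −0.54 ± 0.18, edgeR adjusted p = 0.0953). For miR-17-5p the P3 level was 887 ± 203 CPM and the P7 level 635 ± 80.5 CPM (edgeR adjusted p = 0.121).

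The remaining falls were miR-135a-2-3p, miR-879-5p, miR-3099-3p, miR-384-3p and miR-3085-3p. miR-3099-3p, from an intron of the paternally expressed gene Usp29, was at 2.40, 2.59 and 2.27 CPM at P3 and 1.16, 1.05 and 1.13 CPM at P7 (log2 fold change −1.12 ± 0.21, edgeR adjusted p = 0.00724, up to 0.0573 with 1 library left out). miR-135a-2-3p, from an intron of the noncoding gene Rmst, went from 4.92 ± 1.01 to 1.89 ± 0.272 CPM (log2 fold change −1.39 ± 0.29). miR-879-5p and miR-384-3p went from 26.4 ± 1.78 to 16 ± 1.23 CPM and from 5.28 ± 2.12 to 2.14 ± 0.314 CPM. The calls of these last 3 were each lost in at least 1 omission, with an edgeR adjusted p up to 0.0871, 0.177 and 0.0871. miR-3085-3p had 6, 18 and 15 reads at P3 and 0, 1 and 0 at P7, a ratio of 0.0329 with a 95% interval from the counts alone of 0.000811 to 0.194 (edgeR adjusted p = 0.00724, up to 0.0549 with 1 library left out). The other arm of the hairpin was tested for 23 of the 31 calls, and in 20 of these it had the sign of the called arm. Apart from both arms of miR-483, which are calls themselves, none of these other arms passed. Some had differences near 0, such as miR-25-3p (−0.09 ± 0.27). The share of arm pairs with equal sign over all miRNAs was not computed.

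Lists of other cell types gave no call in the main edgeR fit. None of the tested members of the erythroid (7), leukocyte (8), vascular (7), mesenchymal (6), neural (10), muscle (8), endocrine (4), liver (2) or pluripotency (4) lists passed, nor did any of the let-7 family (22), the miR-30 family (11), the miR-200 family (10), the miR-29 family (6), the family of miR-34 and miR-449 (8) or the miR-183 cluster (5). The lists of miR-10 (4), miR-148 and miR-152 (6), the cluster of miR-322 and miR-503 (13), the clusters of miR-23, miR-27 and miR-24 (11) and miR-221 with miR-222 (4) held no call either. Over these lists and that of Sfmbt2 below, 21 lists with 211 miRNAs, 16 were higher and 14 lower at an unadjusted p under 0.05. Of all 746 miRNAs 64 were higher (8.58%) and 119 lower (16%). DESeq2 called 9 of the 211, against 76 of all 746. With the miR-10 share as covariate edgeR called members of some of these lists, at most 5 in that of Sfmbt2 and 4 of let-7, against 121 of all 746. The let-7 family, which rises over development in many tissues, had 18 positive and 4 negative log2 differences with a median of 0.12, which became −0.28 with library totals alone. The miR-30 family, abundant in the nephron, had a median of 0.35, which became −0.03 with library totals alone. miR-30a-5p was at 60171, 40401 and 45881 CPM at P3 and 76136, 66186 and 68207 CPM at P7 without overlap (log2 difference 0.52 ± 0.23, edgeR adjusted p = 0.186). The liver miRNA miR-122-5p was at 0.497, 30.1 and 19.2 CPM at P3 and 3.64, 2.42 and 1.04 CPM at P7, low in the same P3 library that held most miR-10. The summed muscle markers ran from 31.9 to 37.6 CPM at P3 and from 23.0 to 25.8 CPM at P7, and the part of these markers in the results was not tested.

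The repeated miRNA families in an intron of Sfmbt2 (miR-297, miR-466, miR-467 and miR-669) had 55 members tested, none of which passed in the main edgeR fit. At an unadjusted p under 0.05, 1 was higher and 9 lower, against 8.58% and 16% of all miRNAs, and DESeq2 called none. The families had 48 negative log2 differences, against 431 of all 746 miRNAs, and a median of −0.32. Many of their mature sequences are nearly identical, so reads cannot be assigned to single members with certainty, and miR-669a-3p and miR-669o-3p had the same counts throughout.

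**Figure D4:**
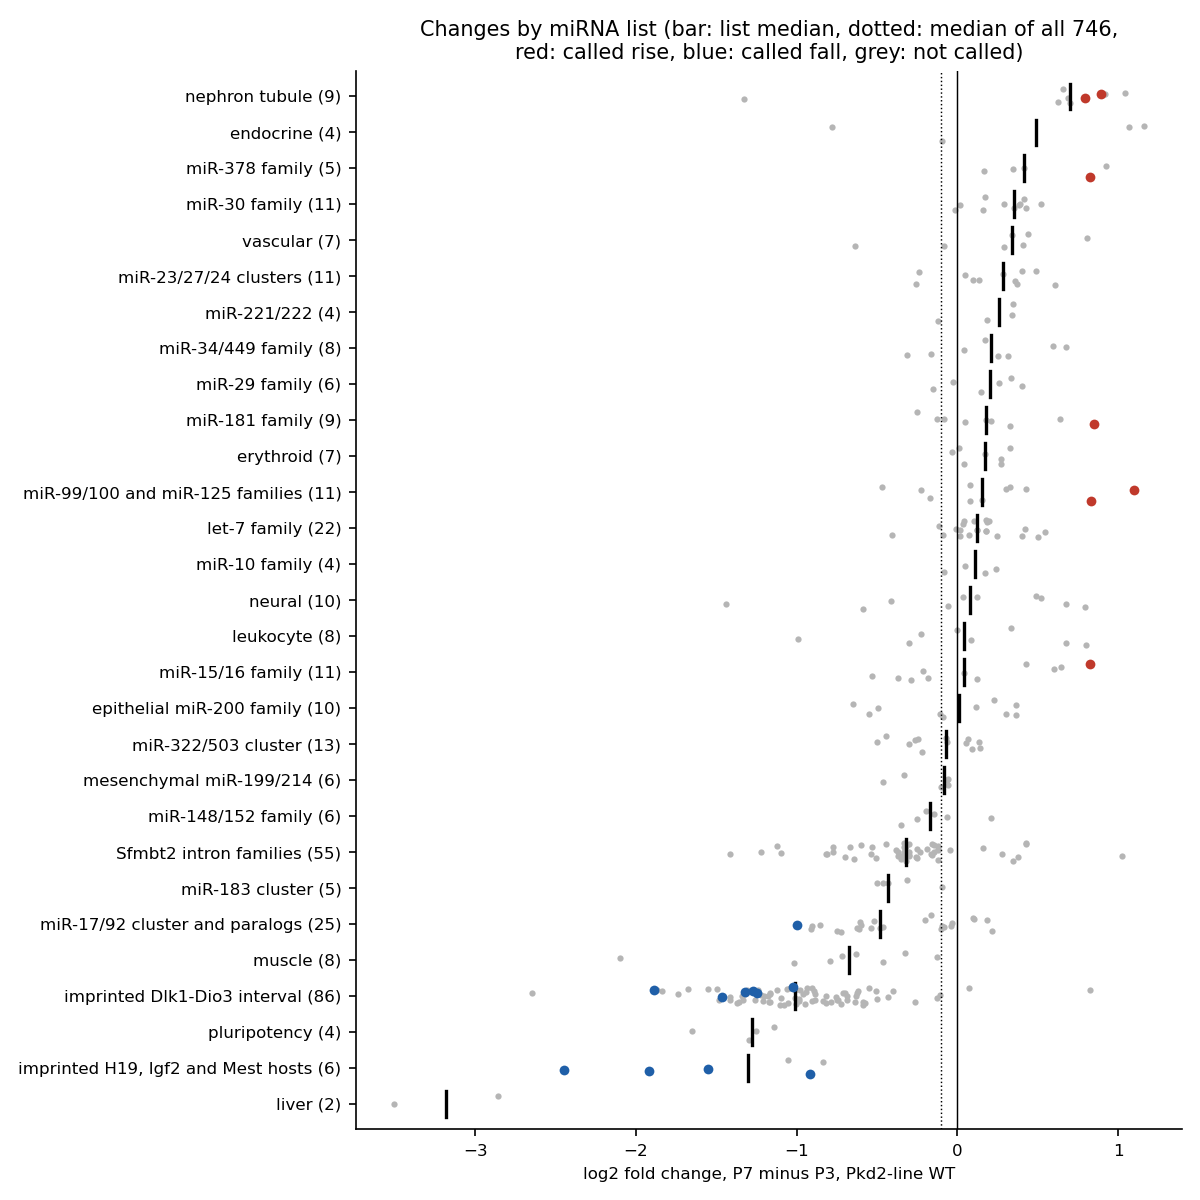
Log2 fold change from P3 to P7 in Pkd2-line WT (horizontal axis) of the members of each list (rows, with the number tested), the list median as a bar and the median of all 746 as a dotted line. The nephron tubule list lies furthest right (median 0.70) and the liver list of 2 members furthest left (−3.18). The lists of H19, Igf2 and Mest hosts (−1.30), pluripotency (−1.27) and Dlk1-Dio3 (−1.01) follow. Called rises are in red and called falls in blue.

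Whether the same changes occurred in cystic kidneys was examined in the Pkd2-line KO libraries, which share no library with WT. The KO libraries at P7 also differed in composition. The pair miR-10a-5p and miR-10b-5p took 74.1% of reads in P7 KO replicate 2 (TMM factor 0.393), against 41.1% and 57.4% in replicates 1 and 3. Between P3 and P7, 66 miRNAs passed in KO (8.85%). Of the 31 called in WT, 12 were also called in KO in the same direction, which is 38.7% of the WT calls and 18.2% of the KO calls, and none in the opposite direction. The sign was the same for 26 of the 31, against 460 of all 746 miRNAs (61.7%). The change itself differed between WT and KO for 1 miRNA (0.134%), miR-31-5p.

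The falls of the Igf2 and Mest miRNAs were found in KO too. miR-335-3p fell there by 1.49 ± 0.15 and miR-483-3p by 2.18 ± 0.33 on the log2 scale (edgeR adjusted p = 2.27e-05 and 0.000836), and the imprinted host list had a KO median of −1.22. miR-6539 and miR-130b-3p fell in KO by 2.81 ± 0.33 and 1.31 ± 0.16. The nephron tubule list had a KO median of 0.00, with none of 9 called. miR-204-5p was at 727 CPM at P3 and 674 CPM at P7 in KO (group means; log2 difference −0.11 ± 0.21), and miR-194-5p at 521 and 524 CPM. The difference of the change between WT and KO did not pass for either (edgeR adjusted p = 0.170 and 0.265).

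The Dlk1-Dio3 list had a KO median of 0.34, with 18 of 86 members negative and none called. Its summed level in KO was 7360, 9885 and 7235 CPM at P3 and 13080, 6864 and 11425 CPM at P7. KO replicate 2 at P7, the library with a miR-10 share of 74.1%, lay below all KO libraries at P3. The WT change minus the KO change had a median of −1.32 over the 86 members. At an unadjusted p under 0.05 this difference was negative for 45 of the 86, against 82 of all 746 miRNAs (11%), and for none of the 86 did it pass after adjustment.

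In the Pkd1 line, WT kidneys without Cre were sampled at the same ages. There the pair miR-10a-5p and miR-10b-5p took 57.4%, 63.8% and 37.3% of reads at P3 and 79.9%, 81.0% and 57.9% at P7. All 36 libraries were fitted together over 775 miRNAs. In that fit 135 miRNAs passed between P3 and P7 in Pkd1-line WT (17.4%) and 44 in Pkd2-line WT (5.68%). Of the 31 calls, 11 were called in the same direction in Pkd1-line WT, 35.5% of the 31 and 8.15% of the 135, and none in the opposite direction. The sign was the same for 27 of the 31, against 487 of the 746 (65.3%). Among those called in both were miR-6539, miR-335-3p, miR-130b-3p, miR-483-5p, miR-195a-5p, miR-100-5p and miR-378d. Line, and any batch that goes with it, cannot be told apart.

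**Figure D5:**
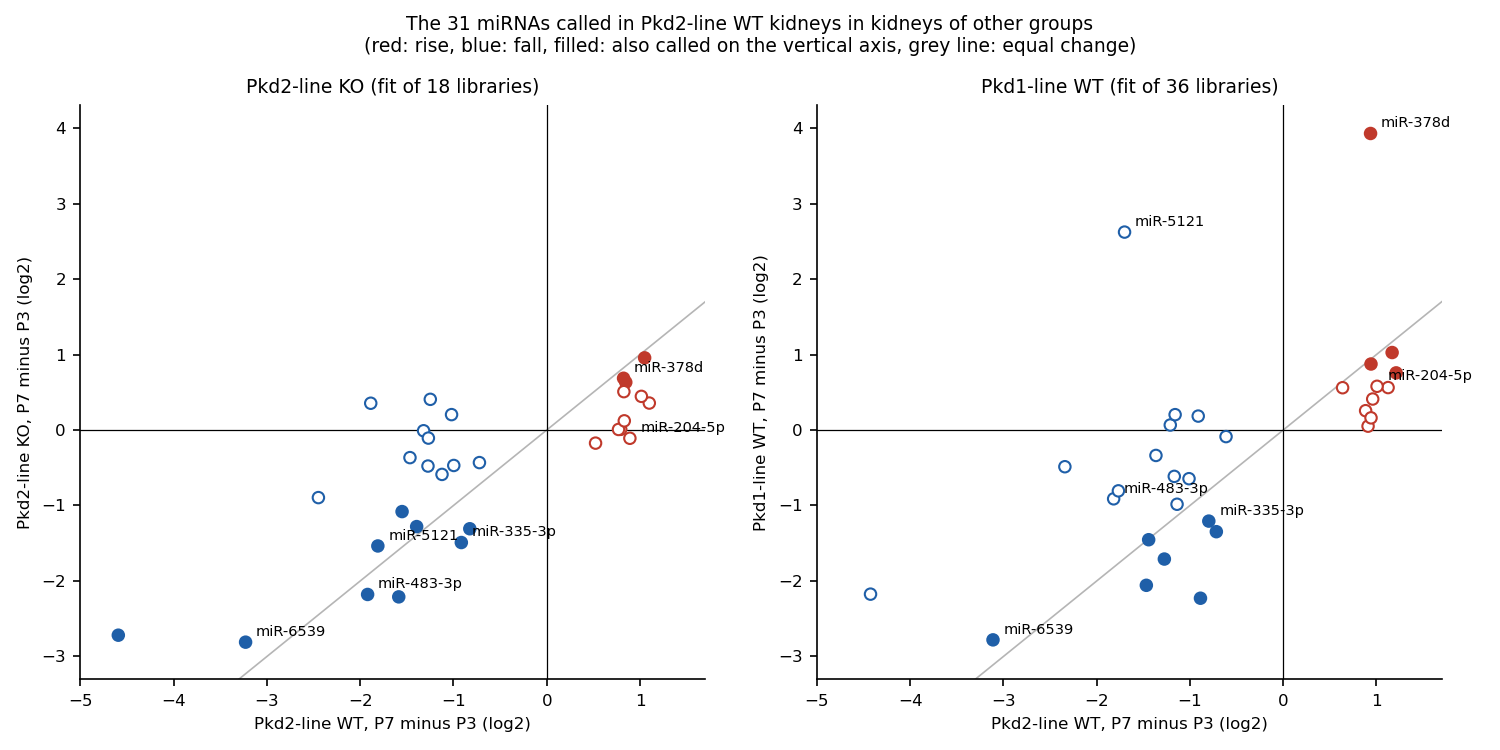
Log2 fold change from P3 to P7 of the 31 called miRNAs (red rises, blue falls) in Pkd2-line WT (horizontal axes) against Pkd2-line KO (left, 18-library fit) and Pkd1-line WT (right, 36-library fit), with the line of equal change in grey. Filled points, 12 on the left and 11 on the right, are also called on the vertical axis, and miR-378d stands at 3.93 in Pkd1-line WT.

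The change itself differed between the lines for 15 miRNAs (1.94%). The median difference over all 775 miRNAs was 0.05 on the log2 scale and became 0.77 with library totals alone. The part of library composition in these differences was not tested. The smallest adjusted p was that of miR-378d, which rose in both lines but by 2.99 ± 0.24 less on the log2 scale in the Pkd2 line (edgeR adjusted p = 7.70e-10). On the scale of the joint fit it was at 46.1, 46.5 and 54.5 CPM at P3 and 807, 738 and 697 CPM at P7 in Pkd1-line WT, against 32.9, 45.2 and 43.4 and then 65.0, 83.0 and 84.7 CPM in Pkd2-line WT. The Dlk1-Dio3 list had a median of 0.04 in Pkd1-line WT, with 42 of 86 negative, and the difference between lines passed for none of its members. In this joint fit the fall of miR-5121 in the Pkd2 line was not called (log2 difference −1.70 ± 0.97, edgeR adjusted p = 0.347). It had a log2 difference of 2.62 ± 0.96 in the Pkd1 line (edgeR adjusted p = 0.0570), where 1 library at P7 held 19.9 CPM and the other 5 libraries at most 2.02 CPM.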

How the data were processed

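Small RNA reads of 36 mouse kidney libraries were processed by the study, which removed adaptors, kept reads over 17 bases and counted them with miRDeep2 against miRBase release 21. The submitters' processing notes also name CASAVA 1.8.2, HTSeq and mm10. The authors deposited raw read counts, without normalization, in 2061 rows. For the 83 mature miRNAs listed under several hairpins (146 extra rows), the row with the highest total was kept. Counts of the 18 Pkd2-line libraries (at least 10 counts in at least 3) entered quasi-likelihood tests (edgeR 4.0.16, R 4.3.3) with trimmed mean of M values (TMM) factors and 1 term per group of age and genotype, and adjusted by the Benjamini-Hochberg method. As the TMM factor of P3 replicate 1 was 0.544, normalised values of a library need not sum to a fixed total. SE is the log2 fold change divided by the square root of F. DESeq2 1.42.0 was an alternative. Ratios of scarce reads have exact conditional 95% intervals.

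Named were, among calls averaging 10 or more counts whose groups did not overlap, up to 8 largest rises and falls, up to 5 of each by level, up to 3 members per list and up to 4 per difference. The 7 calls outside this rule (miR-25-5p, miR-3085-3p, miR-3099-3p, miR-379-3p, miR-384-3p, miR-540-3p and miR-675-5p), miRNAs sharing a seed or hairpin with a call, and miR-1247 were named after their values were seen. Members and lists were chosen with earlier results of these data known. RefSeq matched 622 of the 746 miRNAs and 28 of the 31 calls, and host genes are from GENCODE (GRCm38). Labels gave same-numbered libraries at P3 and P7, which come from kidneys of different ages. Their deviations from the group means correlated at r = 0.553, 0.188 and 0.506 across miRNAs, each above 0.1. These values are a hint of pairing from the data only. Differently numbered libraries correlated at −0.529 to 0.417, and P3 replicate 2 correlated better with P7 replicate 3 than with its own number. The main tests therefore did not pair the libraries, and a fit with the replicate block was run as an alternative. Other alternatives were scaling, filters, libraries fitted, a miR-10 covariate and leaving out each library. The fit was also run on simulated counts with a common spread for all miRNAs and no library of outlying composition. Such counts differ from these data, so that run does not show how the fit handles these libraries. Messenger RNA, Pkd2 included, was not analysed here.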

Additional observations from a re-analysis of the deposited data

Results flagged for a closer look

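The change from P3 to P7 differed between Pkd2-line WT and Pkd1-line WT by edgeR's quasi-likelihood test for 15 miRNAs, of which the 4 with the smallest adjusted p are given as values on the scale of the joint fit. miR-378d rose less in the Pkd2 line (difference of log2 fold changes −2.99 ± 0.24 SE, adjusted p = 7.70e-10). miR-497a-5p was at 202, 206 and 201 CPM at P3 and 284, 374 and 344 CPM at P7 in the Pkd2 line, against 211, 245 and 258 and then 125.5, 117 and 138 CPM in the Pkd1 line, so that the direction was opposite (difference 1.63 ± 0.26, adjusted p = 0.00035). miR-101a-5p was at 9.58, 10.7 and 8.58 CPM at P3 and 10.03, 12.2 and 12.2 CPM at P7 in the Pkd2 line, and at 8.95, 9.44 and 12.1 and then 3.02, 3.41 and 4.02 CPM in the Pkd1 line (difference 1.79 ± 0.29, adjusted p = 0.00035). miR-148a-3p stayed between 6762 and 8050 CPM in the 6 Pkd2-line libraries and went from 5967, 7071 and 5987 to 13083, 14024 and 11806 CPM in the Pkd1 line (difference −1.07 ± 0.19, adjusted p = 0.00108). All 4 kept their direction under every alternative, each a refit of the same libraries. The calls were lost only with library totals alone, where the edgeR adjusted p was 0.0533 for miR-378d, 0.0522 for miR-497a-5p and miR-101a-5p, and 0.746 for miR-148a-3p.

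The change also differed between WT and KO of the Pkd2 line for miR-31-5p. It was at 95.2, 57.6 and 58.3 CPM at P3 and 53.1, 36.5 and 42.8 CPM at P7 in WT, and at 68.3, 77.4 and 49.9 CPM at P3 and 220, 130.2 and 334 CPM at P7 in KO. The difference of log2 fold changes was −2.48 ± 0.44 SE (edgeR adjusted p = 0.0262). The call was lost without P3 KO replicate 1 (adjusted p = 0.0919), P3 KO replicate 3 (0.124), P3 WT replicate 1 (0.0765), P7 KO replicate 3 (0.0798), P7 WT replicate 2 (0.147) or P7 WT replicate 3 (0.127).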

How the results depend on the processing

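The 31 miRNAs called between P3 and P7 became 14 with library totals alone, 76 with DESeq2 and 121 with a covariate for the miR-10 share, and 6 to 25 with 1 library left out. With the replicate block 27 were called, 25 of them among the 31, and the calls it ended are given in the text. It gave 16 calls for the difference between lines and 1 for that between WT and KO. The 15 calls of the difference between lines became 6 with library totals alone, 73 with the covariate and 6 to 20 with 1 library left out (6 without Pkd1-line P7 replicate 3). The 1 call of the difference between WT and KO became 8 with DESeq2, 2 without a filter on low counts, 10 with the covariate and 0 to 11 with 1 library left out (11 without P7 KO replicate 2). It became 0 by edgeR with library totals alone (36 at an unadjusted p under 0.05) and 0 with only the compared libraries fitted (96). The difference in miR-10 share ranged from −3.82 to 14.6 percentage points with 1 library left out, with negative values of −2.86 without P3 replicate 2, −2.12 without P3 replicate 3 and −3.82 without P7 replicate 1. The causes were not tested. The number of libraries, 3 per age, limits the precision, and miR-3085-3p and miR-675-5p rest on few reads.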

Other observations

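In KO kidneys of the Pkd2 line the erythroid markers (miR-144, miR-451a, miR-486a and miR-486b) had a median log2 fold change of 1.07 from P3 to P7, with 5 of 7 called (8.85% of all miRNAs were called in KO), against 0.17 and none of 7 in WT, where it became −0.14 with library totals alone. In Pkd1-line WT the median was 0.96 and 3 of 7 were called (17.4% of all). The 7 are not independent of each other: over the 6 WT libraries miR-486a-5p and miR-486b-5p had nearly equal mean counts (39508.7 and 39419.5). miR-486a-5p had a log2 fold change of 1.07 in KO (edgeR adjusted p = 0.0275) and of 0.27 in WT (adjusted p = 0.596). By edgeR's test of the difference itself the adjusted p of the 7 ran from 0.170 to 0.795.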
